A study of Mus musculus with 12 samples.

Results

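Probasin (Pbsn), Spink1, Msmb, Sbp, Sbpl, Azgp1 and Fcgbp encode proteins that prostate luminal cells make for export, and they are described here as a set of prostatic secreted protein genes. The 7 genes were chosen by name as known secretory products, out of 48795 gene identifiers in the count table. The choice was made with earlier results of these data known, so counts of members called only describe the set. All 7 passed the filter on low counts. Libraries of messenger RNA 3' ends were made from prostate luminal cells, the inner epithelial layer of the ducts, of wild-type C57BL/6 mice aged 6 to 8 weeks. Cells bearing endothelial, leukocyte or red cell surface proteins were sorted out, and the others were gated on the surface proteins LY6D and SCA1 (product of Ly6a). The 6 populations were LY6D+ SCA1low, LY6D+ SCA1int, LY6D+ SCA1high, LY6D- SCA1low, LY6D- SCA1int and LY6D- SCA1high, with 2 libraries each and no drug treatment or engineered allele in any. Whether the 2 libraries of a population came from different mice is not stated in the labels, so a p-value here reflects only the spread between libraries, which may be technical.

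The prostate secretes a fluid that is mixed with sperm and with the products of the seminal vesicles at ejaculation. Its luminal cells load secreted proteins into the endoplasmic reticulum, fold and glycosylate them, and release them into the duct lumen, and in the mouse much of this programme depends on androgens. Probasin is a lipocalin, a small barrel-shaped carrier protein, and its promoter is widely used to drive transgenes in mouse prostate epithelium. Spink1 is a Kazal-type inhibitor of trypsin-like proteases, and Msmb is beta-microseminoprotein, a small cysteine-rich seminal plasma protein. Sbp is the androgen-dependent spermine-binding protein of the mouse ventral prostate, and Sbpl is its neighbouring copy. Azgp1 is zinc-alpha-2-glycoprotein, a soluble protein with an MHC class I-like fold, and Fcgbp is a large mucus-associated protein first described as binding the Fc part of IgG.

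On GRCm38 with GENCODE M21, Pbsn (ENSMUSG00000000003) lies on the minus strand at chrX:77837901-77853623. Msmb (ENSMUSG00000021907) lies at chr14:32142023-32158370, Azgp1 (ENSMUSG00000037053) at chr5:137981520-137990233 and Fcgbp (ENSMUSG00000047730) at chr7:28071236-28120862, all on the plus strand. Sbp (ENSMUSG00000024128, chr17:23941672-23945607, plus strand) and Sbpl (ENSMUSG00000024125, chr17:23953084-23955274, minus strand) stand side by side and face opposite ways. Sbp and Sbpl are shown because they are closely alike copies, which a 3' read has to tell apart. The stretches printed are coding bases and were not chosen as the place where 3' reads fall. Their annotated coding sequences aligned over 597 bases with 93.8% identity, and 38.7% of the 50-base words in Sbp's coding sequence occurred unchanged in that of Sbpl. Over the last 300 bases of the transcripts, identity was 91.5% in 281 aligned bases, and 43.8% of Sbp's 50-base words occurred in Sbpl. Counts of a single copy are therefore uncertain, and both genes were also fitted as a sum. The stretches below come from 1 ungapped block (Sbp at chr17:23945149-23945298, coding bases 304 to 453; Sbpl at chr17:23953446-23953595, coding bases 349 to 498), with the 5 differing bases in capitals.
Sbp: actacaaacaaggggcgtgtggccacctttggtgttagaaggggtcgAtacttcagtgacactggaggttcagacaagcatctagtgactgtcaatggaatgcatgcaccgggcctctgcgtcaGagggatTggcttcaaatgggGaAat
Sbpl: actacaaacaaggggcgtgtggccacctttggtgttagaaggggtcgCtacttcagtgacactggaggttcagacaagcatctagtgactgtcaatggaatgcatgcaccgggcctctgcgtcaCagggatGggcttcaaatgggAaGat

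RefSeq promoter windows on GRCm38.p6, 250 bases before to 50 after the transcript start, matched 5 of the 7 genes: Pbsn, Sbp, Sbpl, Azgp1 and Fcgbp. Those of Pbsn and Sbpl are shown because both genes fell along the same gates and carry a TATAAA stretch ahead of the start (Pbsn at chrX:77853451-77853750, minus strand; Sbpl at chr17:23955224-23955523, minus strand; each 5' to 3' along its own gene). Capitals mark the hexamer AGAACA or its reverse complement TGTTCT, which is the repeated unit of the androgen response element, searched on both strands, and TATAAA, searched on the gene's strand. The 2 motifs do not overlap each other.
Pbsn promoter: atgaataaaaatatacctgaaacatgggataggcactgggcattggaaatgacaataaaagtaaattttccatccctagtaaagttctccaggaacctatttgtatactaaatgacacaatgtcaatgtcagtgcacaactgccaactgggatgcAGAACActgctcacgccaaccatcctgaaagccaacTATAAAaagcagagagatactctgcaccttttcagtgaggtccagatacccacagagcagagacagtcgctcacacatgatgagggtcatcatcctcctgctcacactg
Sbpl promoter: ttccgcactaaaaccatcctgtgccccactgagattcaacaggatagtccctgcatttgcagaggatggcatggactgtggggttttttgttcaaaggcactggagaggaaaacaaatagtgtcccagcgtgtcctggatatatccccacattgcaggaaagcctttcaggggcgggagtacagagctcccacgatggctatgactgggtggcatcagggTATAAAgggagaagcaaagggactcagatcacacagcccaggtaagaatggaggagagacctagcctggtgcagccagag
In Pbsn the hexamer begins 95 bases and TATAAA 59 bases upstream of the annotated start, and in Sbpl TATAAA begins 30 bases upstream. The hexamer was also found in 1 of 3 windows of Sbp, 64 bases upstream, and in Azgp1, 14 bases downstream of the start. Of 32851 promoter windows, 19.0% held the hexamer and 8.32% held TATAAA, and these matches describe the letters only.

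Total counts ran from 8436185 to 20022077 per library, and features at the ribosomal RNA repeat took 6.97% to 24.4% of them. The luminal keratin and adhesion genes (Krt8, Krt18, Krt19, Cd24a, Epcam and Cdh1) were present in every library, at summed levels of 947 to 1547 CPM (counts scaled to a common library total with TMM factors) in LY6D+ and 765 to 1870 CPM in LY6D- libraries. Markers of other cells moved with the gates. All 15 basal cell markers were detected, with sums of 2728 to 5256 CPM in LY6D+ and 261 to 2260 CPM in LY6D- libraries. All 15 endothelial markers were detected, with sums of 20.8 to 605 CPM in LY6D+ and 382 to 5313 CPM in LY6D- libraries, the highest in LY6D- SCA1high. Some libraries also shared counts across populations: genes with at least 60% of all their counts, and at least 500 counts, in 1 library recurred in another at a median of 14.9% (10 genes, LY6D- SCA1high replicate 1 in LY6D- SCA1low replicate 2), 14.4% (15 genes, LY6D+ SCA1high replicate 2 in LY6D+ SCA1int replicate 2) and 7.98% (73 genes, LY6D- SCA1low replicate 1 in LY6D- SCA1high replicate 2). This recurrence is called carry-over below, as a name for the measured pattern; whether these counts came from the other library, from the sort or from like cells was not tested. In the replicate of their own population these sets of genes recurred at medians of 25.3%, 0.113% and 0.693%, in the order above. An expected share from other libraries leaves out the replicate of the same population and assumes that every gene recurs at the same rate.

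The 7 genes were a large part of the RNA of some populations and a trace in others. Together they took 1.92% and 1.2% of all counts in the LY6D+ SCA1low libraries, 0.0967% and 0.283% at LY6D+ SCA1int, and 0.125% and 0.0747% at LY6D+ SCA1high. In LY6D- cells they took 7.06% and 5.29% at SCA1low, 2.95% and 3.75% at SCA1int, and 0.323% and 0.536% at SCA1high. A read here is a 3' tag and so nearly independent of transcript length, and on this scale Spink1 led the set in every library, reaching 5.34% of all counts in LY6D- SCA1low replicate 1. The wide gap in this share lay after SCA1low in LY6D+ cells and after SCA1int in LY6D- cells, and the LY6D+ SCA1int and SCA1high libraries overlapped. In bulk populations, fewer cells that make a transcript and less of it per cell cannot be told apart.

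**Figure D1:**
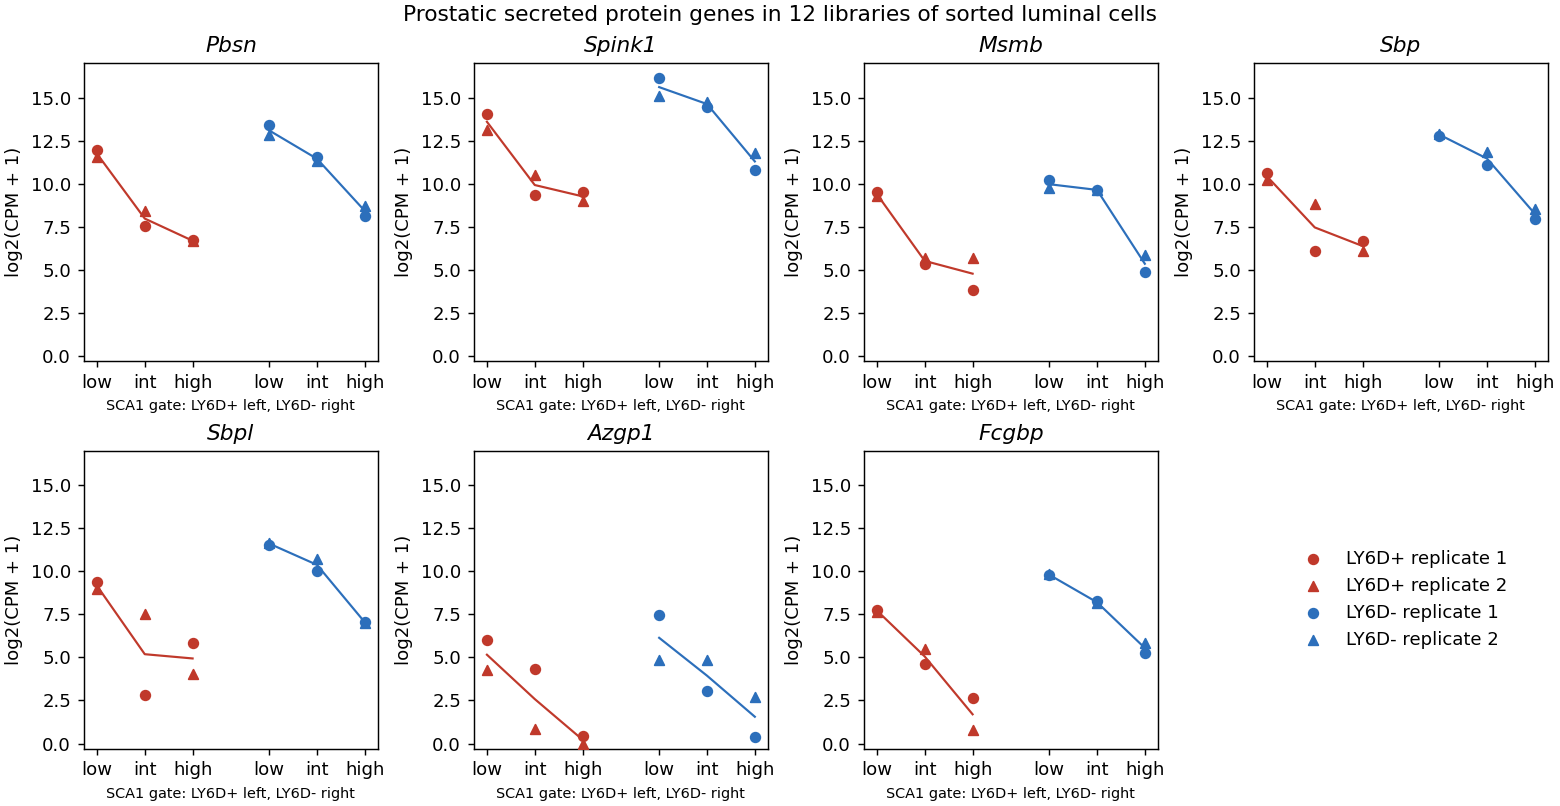
Level of each gene as log2(CPM + 1) against the SCA1 gate, LY6D+ cells in red on the left and LY6D- cells in blue on the right of each panel; points are single libraries and lines join the means of 2 libraries. In LY6D+ cells Pbsn, Spink1 and Msmb drop between SCA1low and SCA1int, and in LY6D- cells between SCA1int and SCA1high, while Azgp1 stays low with wide gaps between replicates.

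Pbsn stood at 3910.3 and 2999.9 CPM in LY6D+ SCA1low, at 183 and 343 CPM in LY6D+ SCA1int and at 105 and 99.5 CPM in LY6D+ SCA1high libraries. In LY6D- libraries it stood at 10655 and 7158 CPM at SCA1low, 3055 and 2545 CPM at SCA1int, and 276 and 421 CPM at SCA1high. The order by mean was LY6D- SCA1low, LY6D+ SCA1low, LY6D- SCA1int, LY6D- SCA1high, LY6D+ SCA1int and LY6D+ SCA1high. Libraries overlapped between LY6D+ SCA1low and LY6D- SCA1int and between LY6D- SCA1high and LY6D+ SCA1int. The order within these pairs is therefore uncertain, and the pairs were not compared by a test. Replicates were between 1.05 and 1.88 times apart. Pbsn was 29.4-fold lower in SCA1high than in SCA1low cells averaged over LY6D (log2 fold change -4.88 ± 0.23 SE, adjusted p = 6.05e-15 by edgeR's quasi-likelihood test, n = 4 libraries a side), and 4.54-fold lower in LY6D+ than in LY6D- cells averaged over SCA1 (-2.18 ± 0.16, adjusted p = 7.99e-10, n = 6 a side).

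Spink1 (ENSMUSG00000024503, minus strand, chr18:43728082-43737557), the protease inhibitor gene, stood at 16940.3 and 9020.5 CPM in LY6D+ SCA1low, 653 and 1437 CPM in LY6D+ SCA1int and 742 and 507 CPM in LY6D+ SCA1high libraries. In LY6D- libraries the values were 71398 and 34790.4 CPM at SCA1low, 22780.2 and 27939 CPM at SCA1int, and 1792 and 3504 CPM at SCA1high. Every LY6D- library at SCA1int was above every LY6D+ library at SCA1low, which was not so for Pbsn, and LY6D+ SCA1int and SCA1high overlapped. At SCA1int the LY6D+ libraries were 24.3-fold lower than the LY6D- libraries (log2 fold change -4.60 ± 0.35 SE, edgeR adjusted p = 3.29e-09, n = 2 a side). The difference in the other gates was about 4-fold: 4.09-fold at SCA1low (-2.03 ± 0.31, edgeR adjusted p = 0.000587) and 4.24-fold at SCA1high (-2.08 ± 0.32, edgeR adjusted p = 0.000711). Single libraries moved these values, to -5.25 at SCA1int without LY6D+ SCA1int replicate 2 and to -2.66 at SCA1low without LY6D+ SCA1low replicate 1.

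Msmb stood at 722 and 622 CPM in LY6D+ SCA1low, 39.8 and 50.3 CPM in LY6D+ SCA1int and 13.5 and 50.9 CPM in LY6D+ SCA1high libraries. In LY6D- libraries it stood at 1178 and 851 CPM at SCA1low, 808 and 785 CPM at SCA1int, and 28.2 and 56.2 CPM at SCA1high. The 6 populations thus formed a high and a low group, with LY6D+ SCA1low, LY6D- SCA1low and LY6D- SCA1int high, and the 3 others, whose libraries overlapped, low. At SCA1int, Msmb was 17.7-fold lower in LY6D+ than in LY6D- cells (log2 fold change -4.14 ± 0.57 SE, edgeR adjusted p = 0.000208). Its LY6D difference was not called at SCA1low (-0.59 ± 0.50, edgeR adjusted p = 0.598) or at SCA1high (-0.39 ± 0.50, edgeR adjusted p = 0.841). The sign at SCA1high turned without LY6D+ SCA1high replicate 1 (0.26), without LY6D- SCA1high replicate 2 (0.11) and after subtraction of carry-over (0.84 ± 0.56). Annotated antisense to Msmb is Gm18909, which has no row in the count table.

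Sbp stood at 1599 and 1187 CPM in LY6D+ SCA1low, 67.9 and 450.2 CPM in LY6D+ SCA1int and 100.3 and 67.6 CPM in LY6D+ SCA1high libraries. In LY6D- libraries it stood at 7106 and 7705 CPM at SCA1low, 2170.2 and 3642 CPM at SCA1int, and 247 and 375 CPM at SCA1high. The replicates of LY6D+ SCA1int were 6.63 times apart and overlapped those of LY6D+ SCA1high and LY6D- SCA1high. Sbpl, the copy next to it, stood at 666 and 491 CPM in LY6D+ SCA1low, 6.15 and 185 CPM in LY6D+ SCA1int and 56.8 and 15.3 CPM in LY6D+ SCA1high libraries. In LY6D- libraries Sbpl stood at 2986 and 3254 CPM at SCA1low, 1032 and 1701 CPM at SCA1int, and 134 and 126 CPM at SCA1high. Both copies were lower in LY6D+ than in LY6D- cells at SCA1int, Sbp by 11.2-fold (log2 fold change -3.49 ± 0.49 SE, edgeR adjusted p = 0.000239) and Sbpl by 14.3-fold (-3.84 ± 0.78, edgeR adjusted p = 0.0208). As the LY6D+ SCA1int replicates are far apart, these sizes depend on each of them: without replicate 1 the log2 fold changes were -2.67 for Sbp and -2.87 for Sbpl, and without replicate 2 they were -5.39 and -7.77. The call on Sbpl was lost with RLE size factors (adjusted p = 0.0713), limma-trend (adjusted p = 0.121), the 4 libraries fitted alone (adjusted p = 0.468) and after subtraction of carry-over (adjusted p = 0.63), and that on Sbp with the 4 libraries alone (adjusted p = 0.203). The summed copies had -3.59 ± 0.52 SE at SCA1int (edgeR adjusted p = 0.000391), -2.63 ± 0.29 in the LY6D average and -4.31 ± 0.38 in the SCA1 average.

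The ratio of the 2 copies was steady where both were abundant. Sbpl had 41.7 and 41.4 counts per 100 Sbp counts in LY6D+ SCA1low libraries and 42.0 and 42.2 in LY6D- SCA1low libraries, and 47.5 and 46.7 in LY6D- SCA1int libraries. The ratio scattered in the other populations, with 9.06 and 41.0 in LY6D+ SCA1int and 56.6 and 22.6 in LY6D+ SCA1high. In LY6D- SCA1high it was 54.5 and 33.7. Levels of both copies were lower in these populations, but some libraries still held many counts. LY6D- SCA1high replicate 2 held 8844 Sbp and 2983 Sbpl counts, and LY6D+ SCA1high replicate 1 held 2230 and 1263. The cause of the scatter was not tested. The lowest ratio belonged to LY6D+ SCA1int replicate 1, with 114 Sbpl counts beside 1258 Sbp counts, of which carry-over from the other libraries would give 85.1% of the Sbpl counts. The direction of the step from SCA1int to SCA1high in LY6D+ cells rested on its partner library: without LY6D+ SCA1int replicate 2, the log2 fold change of Sbpl turned to 2.55 and that of Sbp to 0.30.

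**Figure D2:**
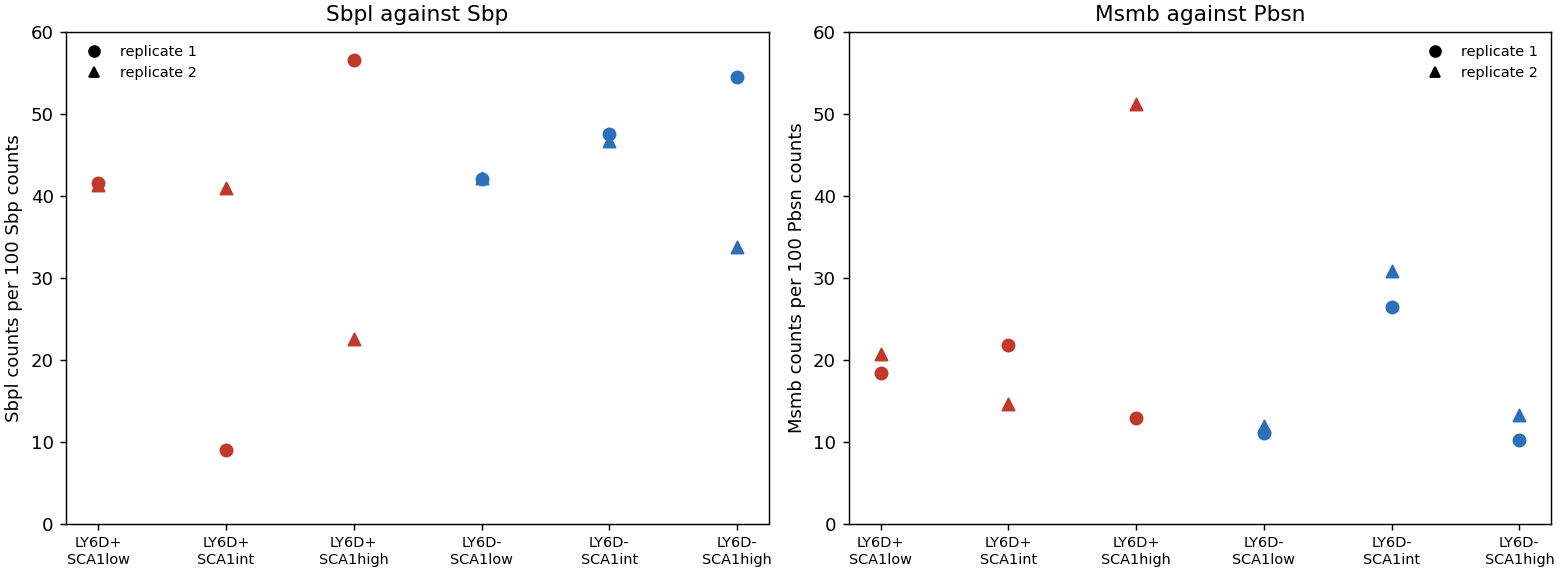
Counts of Sbpl per 100 counts of Sbp (left) and of Msmb per 100 counts of Pbsn (right) in each population, with 1 point per library, LY6D+ in red and LY6D- in blue. Sbpl against Sbp lies between 41.4 and 42.2 in the 4 SCA1low libraries and scatters from 9.06 to 56.6 in LY6D+ SCA1int and SCA1high; Msmb against Pbsn is 26.4 and 30.9 in LY6D- SCA1int, against 11.1 and 11.9 in LY6D- SCA1low.

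Msmb and Pbsn did not keep a fixed proportion either. Msmb had 26.4 and 30.9 counts per 100 Pbsn counts in LY6D- SCA1int libraries, against 11.1 and 11.9 in LY6D- SCA1low and 10.2 and 13.3 in LY6D- SCA1high libraries. In LY6D+ libraries it had 18.5 and 20.7 at SCA1low, 21.8 and 14.7 at SCA1int, and 12.9 and 51.2 at SCA1high. Among LY6D- libraries the proportion was highest at SCA1int, where Pbsn had already fallen and the Msmb level was near that of SCA1low, and the highest of all was that of LY6D+ SCA1high replicate 2. The difference between these proportions was not tested.

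Fcgbp stood at 218 and 201 CPM in LY6D+ SCA1low, 23.2 and 44.5 CPM in LY6D+ SCA1int and 5.17 and 0.706 CPM in LY6D+ SCA1high libraries. In LY6D- libraries it stood at 868 and 915 CPM at SCA1low, 307 and 280.0 CPM at SCA1int, and 36.8 and 56.8 CPM at SCA1high. Its mean was lower at each SCA1 step in both LY6D states, and in the order of levels only LY6D- SCA1high and LY6D+ SCA1int overlapped. LY6D+ SCA1high replicate 2 held 6 Fcgbp counts, 0.0164% of the gene's counts in the other 11 libraries. Fcgbp was the member with the largest LY6D difference at SCA1high among those called, 15.5-fold lower in LY6D+ than in LY6D- cells (log2 fold change -3.96 ± 0.71 SE, edgeR adjusted p = 0.00552). That call was lost without LY6D- SCA1low replicate 2 and LY6D+ SCA1high replicate 2 (-3.18 ± 0.89, adjusted p = 0.0638) and after subtraction of carry-over (-3.41 ± 0.78, adjusted p = 0.28), and the value was -6.05 without LY6D+ SCA1high replicate 1. At SCA1int the difference was 8.67-fold (-3.12 ± 0.68, edgeR adjusted p = 0.0436), a call lost in 7 of 24 alternatives with adjusted p up to 0.243, among them subtraction of carry-over (0.223) and the fits without LY6D+ SCA1int replicate 1 (0.216) or LY6D- SCA1int replicate 1 (0.075).

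Azgp1 was the scarcest member and the one with the widest spread. It stood at 63.9 and 18.6 CPM in LY6D+ SCA1low, 19.0 and 0.794 CPM in LY6D+ SCA1int and 0.360 and 0 CPM in LY6D+ SCA1high libraries. The count of 0 allows up to 0.353 CPM in that library, by 3 counts and for counting error only. In LY6D- libraries it stood at 172 and 27.7 CPM at SCA1low, 7.16 and 27.9 CPM at SCA1int, and 0.313 and 5.59 CPM at SCA1high. Ordered by mean, the populations ran LY6D- SCA1low, LY6D+ SCA1low, LY6D- SCA1int, LY6D+ SCA1int, LY6D- SCA1high and LY6D+ SCA1high, and each overlapped the next. Carry-over would give 102% of the Azgp1 counts of LY6D- SCA1high replicate 2 and 104% of those of LY6D+ SCA1int replicate 2. Its only call was in SCA1high against SCA1low cells averaged over LY6D (log2 fold change -6.35 ± 1.61 SE, edgeR adjusted p = 0.0427), with all 4 SCA1high libraries below all 4 SCA1low libraries. That call was lost with library size as the only scaling (adjusted p = 0.0833), after subtraction of carry-over (adjusted p = 0.0739), with limma-trend (adjusted p = 0.0966), and without LY6D+ SCA1high replicate 2 (adjusted p = 0.0716), LY6D- SCA1low replicate 1 (adjusted p = 0.238) or LY6D- SCA1high replicate 1 (adjusted p = 0.197). The value was -8.63 without LY6D+ SCA1high replicate 1 and -8.16 without LY6D- SCA1high replicate 2.

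Along SCA1, all 7 genes were lower in SCA1high than in SCA1low cells averaged over LY6D, against 0.779% of the 15270 tested genes called lower. Their median log2 fold change was -4.49, beside 0.15 for all tested genes. Within LY6D+ cells 6 of 7 were called lower, with 0.288% of tested genes called lower, and within LY6D- cells likewise 6 of 7, with 0.393%. Azgp1 was the member not called in each. Leaving out 1 LY6D+ SCA1high library moved Msmb in LY6D+ cells to -3.72 (replicate 1) or -5.93 (replicate 2), and leaving out replicate 1 moved Sbpl to -5.24 and Fcgbp to -8.20, with all of these still called. The 6 called members fell by 16.0- to 69.5-fold in LY6D+ cells and by 19.0- to 25.5-fold in LY6D- cells. The test of that difference between the LY6D states called 0 of 7 members by edgeR, with 1 at an unadjusted p under 0.05 and 0.0393% of tested genes called in either direction.

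The fall was then followed step by step in each LY6D state. From SCA1low to SCA1int, 4 of 7 members were called lower in LY6D+ cells (0.17% of tested genes called lower): Pbsn by 13.1-fold (log2 fold change -3.72 ± 0.30 SE), Spink1 by 12.4-fold (-3.63 ± 0.34), Msmb by 14.9-fold (-3.90 ± 0.56) and Sbp by 5.38-fold (-2.43 ± 0.47). Fcgbp (-2.63 ± 0.67), Sbpl (-2.60 ± 0.74) and Azgp1 (-2.06 ± 1.86) had negative values there too and were not called. In LY6D- cells only Pbsn was called at this step (0.0589% of tested genes called lower), by 3.18-fold (-1.67 ± 0.28, edgeR adjusted p = 0.00297), and the log2 fold changes of the 6 others ran from -0.35 to -2.51. That step involves LY6D- SCA1low replicate 2, 1 of the libraries with carry-over, and without the 3 such libraries 3 members were called. The call on Sbp in LY6D+ cells was lost in 6 of 25 alternatives, with adjusted p from 0.0713 with RLE size factors to 0.37 after subtraction of carry-over, and its value was -1.62 without LY6D+ SCA1int replicate 1 and -4.35 without replicate 2.

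From SCA1int to SCA1high, in LY6D- cells 4 of 7 members were called lower (0.105% of tested genes called lower): Pbsn (log2 fold change -3.01 ± 0.29 SE), Spink1 (-3.26 ± 0.33), Msmb (-4.24 ± 0.57) and Sbp (-3.23 ± 0.48), with edgeR adjusted p of 5.2e-07, 7.16e-07, 0.000124 and 0.000587 in that order. Sbpl (-3.39 ± 0.76, edgeR adjusted p = 0.0949), Fcgbp (-2.65 ± 0.67, edgeR adjusted p = 0.226) and Azgp1 (-2.56) also had negative values in LY6D- cells and were not called. In LY6D+ cells 0 of 7 were called by edgeR (0.0262% of tested genes called lower), with 5 members at an unadjusted p under 0.05 and 2 called by DESeq2. Their log2 fold changes there were all negative, from -0.49 for Msmb to -5.58 for Azgp1, and Fcgbp had -3.49 ± 0.70 (edgeR adjusted p = 0.0845). A gene that misses the threshold at this step is not shown to be unchanged.

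**Figure D3:**
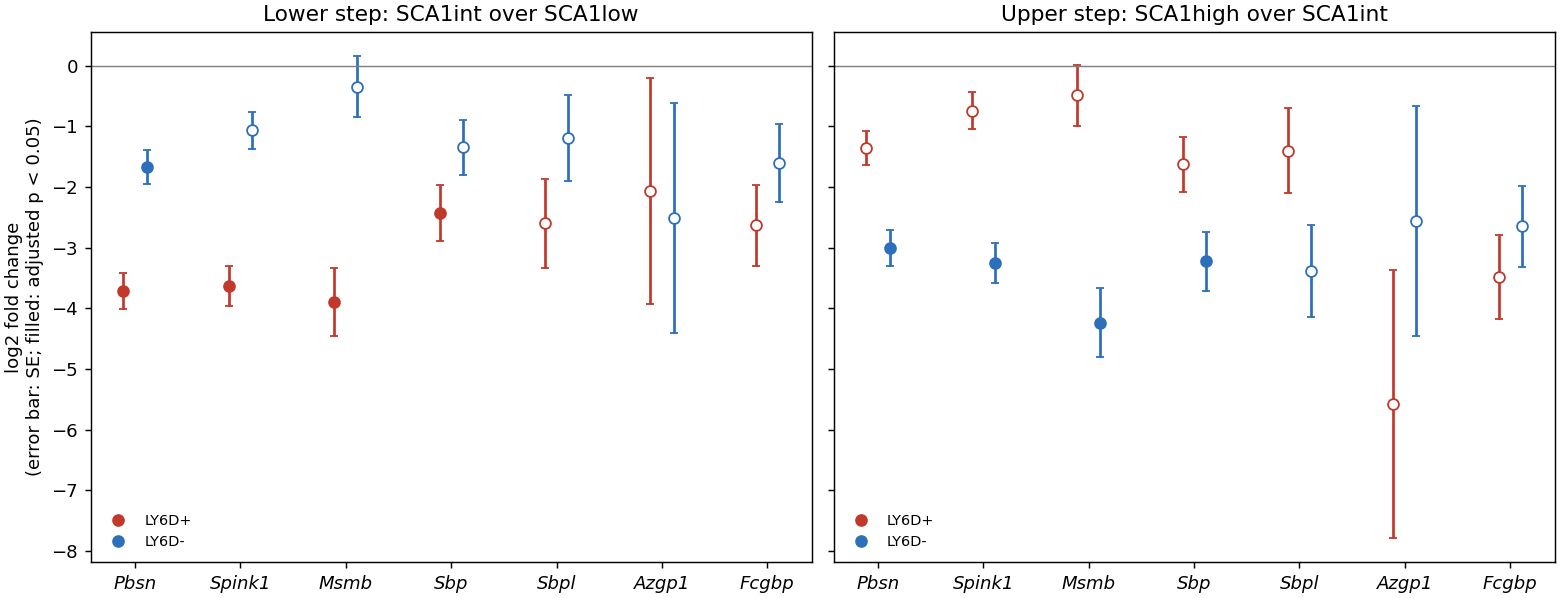
Log2 fold change of each gene at the lower SCA1 step (SCA1int over SCA1low, left) and the upper step (SCA1high over SCA1int, right), in LY6D+ (red) and LY6D- (blue) cells; error bars are SE and filled points have an adjusted p below 0.05. Pbsn, Spink1, Msmb and Sbp are filled in LY6D+ cells at the lower step (-2.43 to -3.90) and in LY6D- cells at the upper step (-3.01 to -4.24).

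Between LY6D states, 6 of 7 members were lower in LY6D+ than in LY6D- cells averaged over SCA1, against 1.21% of tested genes called lower, with a median log2 fold change of -2.60 over the members and 0.03 over all tested genes. Azgp1 was not called (-1.98 ± 1.08 SE, edgeR adjusted p = 0.309). Spink1 fell by 7.49-fold, Fcgbp by 8.30-fold, Sbpl by 6.53-fold, Sbp by 6.04-fold and Msmb by 3.27-fold. The basal and endothelial marker sums given above also differed between LY6D+ and LY6D- libraries, and their part in these differences was not tested.

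The LY6D difference was then taken within each SCA1 gate. At SCA1low 3 of 7 members were lower in LY6D+ cells (0.0917% of tested genes called lower), namely Pbsn (log2 fold change -1.37 ± 0.28 SE), Spink1 (-2.03 ± 0.31) and Sbp (-2.41 ± 0.47), and the call on Pbsn was lost without LY6D+ SCA1low replicate 2 (-1.05, adjusted p = 0.0715). At SCA1int 6 of 7 were lower (0.183%), all except Azgp1, with log2 fold changes of -3.12 to -4.60, and 4 were with RLE size factors, with limma-trend and after subtraction of carry-over, where Sbpl and Fcgbp lost their calls. At SCA1high 3 of 7 were lower (0.124%), namely Pbsn (-1.77 ± 0.28), Spink1 (-2.08 ± 0.32) and Fcgbp (-3.96 ± 0.71). In all 3 gates the 7 fitted values were negative. These counts do not show that the gates differ, which is what the next tests address.

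Tested as an interaction, the LY6D difference was larger at SCA1int than at SCA1low for 2 of 7 members, against 0.0589% of tested genes called in that direction. These were Pbsn (difference of log2 fold changes -2.05 ± 0.39 SE, edgeR adjusted p = 0.028) and Spink1 (-2.57 ± 0.44, edgeR adjusted p = 0.00843). Spink1 was also the 1 member whose LY6D difference was smaller at SCA1high than at SCA1int (2.52 ± 0.43, edgeR adjusted p = 0.0127), against 0.0262% of tested genes called in that direction. Without LY6D+ SCA1int replicate 2 the values for Spink1 were -3.24 and 3.16, without LY6D+ SCA1low replicate 1 the first was -1.89, and without LY6D- SCA1high replicate 1 the other was 1.92. Msmb had the largest fitted values of the members in both tests and missed the threshold in each, at -3.55 ± 0.73 (edgeR adjusted p = 0.0625) and 3.75 ± 0.73 (edgeR adjusted p = 0.0641). DESeq2 called neither Pbsn (adjusted p = 0.37) nor Spink1 (adjusted p = 0.262 and 0.198) in these interactions, RLE size factors and limma-trend gave 0 calls among the members, and DESeq2 called Msmb for SCA1high against SCA1int (adjusted p = 0.018).

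**Figure D4:**
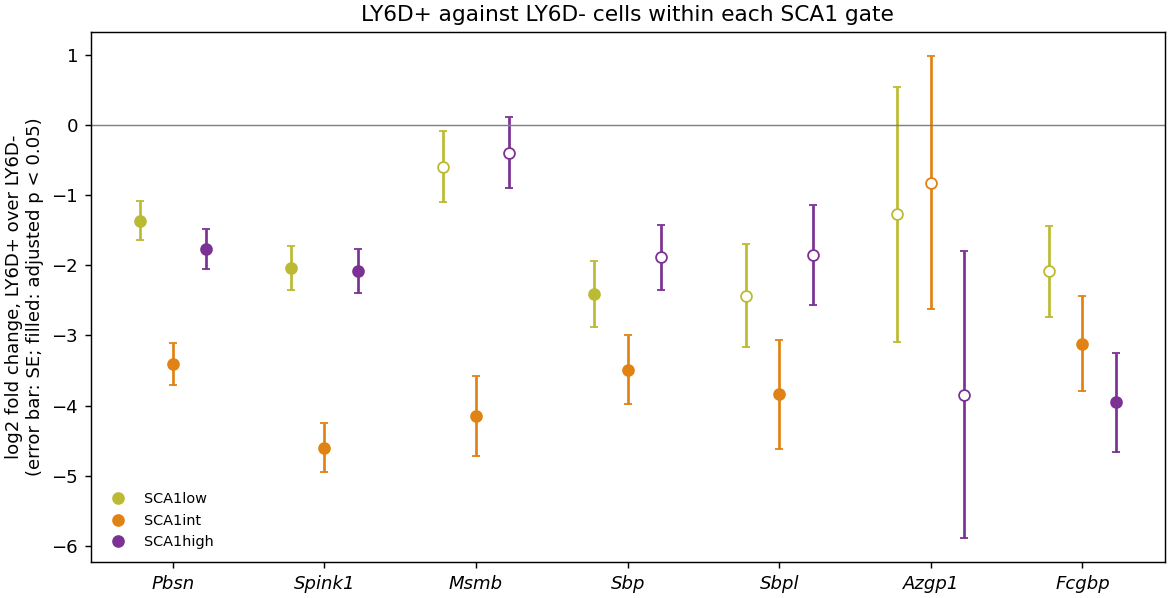
Log2 fold change of LY6D+ over LY6D- cells for each gene within SCA1low (yellow), SCA1int (orange) and SCA1high (purple) gates; error bars are SE, filled points have an adjusted p below 0.05. For Pbsn, Spink1, Msmb, Sbp and Sbpl the SCA1int value is the lowest of the 3 (-3.41 to -4.60), while Fcgbp and Azgp1 are lowest at SCA1high.

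The LY6D difference at SCA1high involves a library that shares counts with LY6D- SCA1low replicate 1. At the measured carry-over of 7.98% from that library, and smaller amounts from others, the expected share of counts in LY6D- SCA1high replicate 2 was 90.9% for Pbsn, 87.7% for Sbpl, 80.8% for Msmb, 70.9% for Spink1 and 56.7% for Fcgbp. With such counts subtracted in all libraries, 0 of 7 members were called between LY6D+ and LY6D- cells at SCA1high by edgeR, with log2 fold changes of -0.50 ± 0.48 SE for Pbsn and -1.14 ± 0.32 for Spink1. Without the 3 libraries with over 5% carried over, 5 of 7 were called there, and likewise 5 of 7 without LY6D- SCA1high replicate 2 alone. Both of these fits leave replicate 1 as the only LY6D- SCA1high library. In the main fit 3 of 7 were called there, with 0.124% of tested genes called lower. The share of all tested genes called in the other fits is not given here, so their counts of members cannot be set against it. LY6D- SCA1high replicate 1 by itself was above both LY6D+ libraries for Pbsn and Spink1. After subtraction, Spink1 kept both interactions, while that of Pbsn lost its call (-1.98 ± 0.68, edgeR adjusted p = 0.339). The averaged SCA1 fall of Pbsn, Spink1, Msmb, Sbp, Sbpl and Fcgbp, and the averaged LY6D difference of these genes other than Sbpl (-2.42 ± 0.71, edgeR adjusted p = 0.135 after subtraction), were called under every alternative run.

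**Figure D5:**
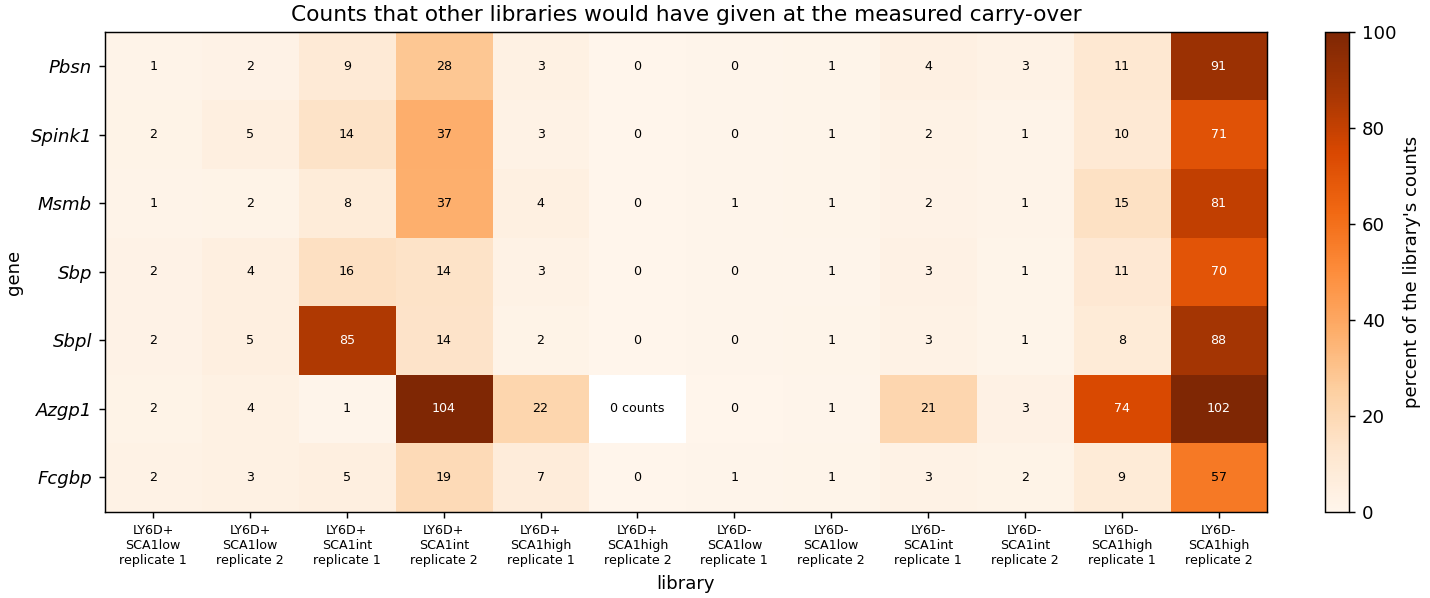
Counts that libraries of other populations would have given at the measured carry-over, as a percent of the counts found, for each gene (rows) in each library (columns). LY6D- SCA1high replicate 2 has 56.7% or more for every gene, LY6D+ SCA1int replicate 2 has 14% or more, and LY6D+ SCA1int replicate 1 has 85.1% for Sbpl.

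Other genes of the secretory programme were compared from lists chosen with these data in view. The lists overlap, so the same call can be counted again. Spink5 and Lcn2 are on the lists of prostate secretory products and of relatives, and Spinkl is on those of relatives and of seminal vesicle secretions. Of 20 tested genes for other prostate secretory products, 5 were lower and 1 higher in LY6D+ than in LY6D- cells, and 6 were lower and 2 higher in SCA1high than in SCA1low cells (1.27% and 0.432% of all tested genes were called higher in these comparisons), with median log2 fold changes of -0.99 and -2.67. The defensin gene Defb50 had -0.62 ± 0.14 SE and -3.14 ± 0.19 in these 2 comparisons, Tgm4, the prostate transglutaminase, -2.14 ± 0.36 and -4.57 ± 0.49, and C1rb, a copy of the complement protease gene C1r, -2.55 ± 0.34 and -3.21 ± 0.43, all called by edgeR. After subtraction of carry-over, 1 was lower and 1 higher between LY6D states, and 3 were lower and 1 higher along SCA1. Of 9 tested relatives of the members (lipocalins, Kazal inhibitors, mucin-like and trefoil proteins), Spink5, a Kazal-type inhibitor gene, was lower in both comparisons (-2.38 ± 0.51 and -3.03 ± 0.64). Spinkl was lower along SCA1 (-5.60 ± 1.02), while the lipocalin gene Lcn2 was higher in LY6D+ than in LY6D- cells (5.68 ± 1.01, edgeR adjusted p = 0.00109), the opposite of the lipocalin gene Pbsn. After subtraction, 0 of these relatives were lower and 1 higher between LY6D states, and 1 was lower along SCA1.

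Genes of the endoplasmic reticulum machinery, where called, were lower in the same comparisons as the members. Of 30 tested genes for translocation and folding of secreted proteins, 4 were lower and 0 higher in LY6D+ than in LY6D- cells, and 10 were lower and 0 higher in SCA1high than in SCA1low cells, with median log2 fold changes of -0.86 and -1.47. Calr, encoding the lectin chaperone calreticulin, had -0.67 ± 0.18 SE and -2.39 ± 0.24, and Sdf2l1, a resident of the same compartment, had -3.64 ± 0.81 and -6.75 ± 1.15, all called by edgeR. Hsp90b1, encoding the chaperone GRP94, was called along SCA1 (-2.25 ± 0.31) and had -0.86 ± 0.25 between LY6D states (edgeR adjusted p = 0.0589). Of the 4 and 10, subtraction of carry-over left counts of 1 and 9. Of 20 tested genes on the list of the androgen receptor and its targets, edgeR called 0 in either comparison, with 3 and 6 at an unadjusted p under 0.05 and DESeq2 calling 0 between LY6D states and 5 along SCA1; the medians were -0.11 and -0.18.

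Marker lists of other cells gave the following counts in the same 2 comparisons. Of 15 tested basal markers 7 were higher in LY6D+ than in LY6D- cells and 3 higher in SCA1high than in SCA1low cells, led by Krt15, Krt14 and Krt5; after subtraction of carry-over the counts were 7 and 2. Of 15 tested endothelial markers 11 were lower in LY6D+ cells and 6 higher in SCA1high cells, against 3 and 9 after subtraction. Kdr was called in both (log2 fold changes -3.63 ± 0.54 SE and 2.60 ± 0.63), and Sele and Egfl7 were called between LY6D states but not along SCA1 (0.49 ± 0.88 and 2.44 ± 0.66). Of 12 tested fibroblast and smooth muscle markers, Vim was lower and Dcn higher in LY6D+ cells, against 0 lower and 1 higher after subtraction. In SCA1high against SCA1low cells edgeR called 0 of these markers, at a median log2 fold change of 2.93. There 6 were higher at an unadjusted p under 0.05, DESeq2 called 5 higher, and 1 was called higher after subtraction. Of 7 tested leukocyte markers Cd52 was lower in SCA1high cells, and 0 were after subtraction. The 6 tested luminal keratin and adhesion genes had 0 calls by edgeR, with 1 at an unadjusted p under 0.05 in each comparison and DESeq2 calling 0 between LY6D states and 1 along SCA1.

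Secretions of the seminal vesicle, which drains near the prostate, were also lower at SCA1high where called. This list shares genes with those of prostate secretory products and of relatives, so some of its calls are counted there too. Of 6 tested genes 4 were lower in SCA1high than in SCA1low cells, among them Svs5 (log2 fold change -3.91 ± 0.55 SE) and Svs4 (-4.68 ± 0.69), against 2 after subtraction of carry-over, and 0 were called between LY6D states by edgeR, with 0 at an unadjusted p under 0.05 and 0 by DESeq2. All 9 listed genes were detected, with sums of 17904 and 3595 CPM in the LY6D+ SCA1low libraries and 6236 and 487 CPM in the LY6D- SCA1low libraries, against 609 and 757 CPM in LY6D+ SCA1high and 280 and 605 CPM in LY6D- SCA1high libraries. Replicates of SCA1low were far apart in these sums and closer in the members other than Azgp1. The part of free or foreign secretory RNA in the members' counts was not tested.

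Across the 12 libraries the members followed each other. Pearson correlations of log2(CPM + 1) ran from 0.62 for Sbpl with Azgp1 to 0.98 for Sbp with Sbpl and for Spink1 with Sbp, over libraries that share populations and carry-over. Among 7381 other genes with a mean of at least 10 CPM, those most alike to Pbsn included Gsdma (0.98) and Dnajc10 (0.98). For Spink1 they included Mfsd2a (0.97) and Gsdma (0.96), and for Msmb Dnajc10 (0.96) and Gsdma (0.96). Sbp was most like Gsdma (0.95), Mfsd2a (0.94) and Spink5 (0.93), and Sbpl was most like Spink5 (0.93), Ren1 (0.91) and Gsdma (0.91). Fcgbp was most like Tcaf3 (0.98), Tgm4 (0.97) and Zdhhc3 (0.97), while its correlation with Pbsn was 0.95. Azgp1 was most like Fkbp11 (0.94), Fgl1 (0.94) and Sdf2l1 (0.92). Gsdma encodes a gasdermin, Dnajc10 a disulfide reductase of the endoplasmic reticulum, and Mfsd2a a membrane transporter.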

How the data were processed

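Per the labels' protocols, 10 to 20 ng of total RNA per population went into QuantSeq 3' libraries. Per the submitters' processing notes, Subread with featureCounts, STAR 2.5.1, cutadapt 1.9.1, edgeR, Picard 1.96 and SAMtools 1.3.1 were used with mm10; no source used here gives the strand setting or annotation, nor molecular identifiers. The authors deposited raw counts for 48795 identifiers, 48349 of which matched a symbol. Their deposited normalised signal values are these counts divided by 1 factor per library and served for 1 alternative.

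Tests used R 4.3.3 and edgeR 4.0.16 on the raw counts: TMM, filterByExpr by population (15270 genes), glmQLFit and glmQLFTest over all 12 libraries (6 residual degrees of freedom). Adjusted p-values are Benjamini-Hochberg over all tested genes in each of 14 comparisons, called below 0.05; SE comes from dividing each log2 fold change by the square root of its F. CPM are TMM-scaled. Scripts were tested on simulated data.

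The members and lists were chosen with earlier results of these data known. Each comparison shows which members were called, while members not called are not always named. Also named are at most 3 called genes per list by p-value, and the 3 most alike genes per member. Some genes that this rule takes are not reported here. Alternatives were RLE, library size, no filter, DESeq2 1.42.0, a replicate block, limma-trend (limma 3.58.1), omission of ribosomal features, of members from the scaling, of each library and of 2 doubted libraries (LY6D- SCA1low replicate 2, LY6D+ SCA1high replicate 2), the libraries of a comparison alone, and Sbp with Sbpl summed. Subtraction of carry-over and omission of 3 libraries were chosen after seeing the data. Carry-over used genes with at least 500 counts and 60% of their counts in 1 library, for donors with at least 10 such genes; 1 library had fewer and was not analysed as a donor.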

Additional observations from a re-analysis of the deposited data

Results flagged for a closer look

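A difference between SCA1 gates in the size of the LY6D effect, tested as an interaction with edgeR, marked 3 results. For Pbsn the LY6D+ against LY6D- difference at SCA1int minus that at SCA1low was -2.05 on the log2 scale. For Spink1 the same difference was -2.57. The Spink1 difference at SCA1high minus that at SCA1int was 2.52. In all 3 cases both LY6D+ libraries lay below both LY6D- libraries in each gate involved.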

How the results depend on the processing

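Called members, of 7, kept their count within 1.5 times under all alternatives for both averages and for SCA1high against SCA1low within each LY6D state. Single calls were still lost within that margin. For SCA1high against SCA1low, the call on Sbpl was lost in 2 of 25 alternatives in each LY6D state. That on Fcgbp was lost in 1 of 24 in LY6D+. For LY6D+ against LY6D- at SCA1low the count was 3, and was 1 after subtraction of carry-over, 0 with limma-trend, 5 with DESeq2, 5 with 4 libraries fitted alone, and 3 to 5 with 1 library left out. At SCA1int 6 became 3 with 4 libraries alone. At SCA1high 3 became 5 without a filter, 0 after subtraction, 5 without the 3 carry-over libraries, 0 with limma-trend, 1 with 4 libraries alone (Azgp1 not tested) and 4 to 5 with 1 left out. For SCA1int against SCA1low in LY6D+, 4 became 2 with limma-trend. In LY6D- 1 became 2 with RLE, 3 without a filter, 3 without both doubted libraries, 0 after subtraction, 3 without the 3 libraries, 0 with limma-trend, 5 with 4 libraries alone and 1 to 4 with 1 left out. For SCA1high against SCA1int in LY6D+, 0 became 1 with RLE, 5 without a filter, 2 with the replicate block, 1 without ribosomal features, 3 without both doubted libraries, 3 without the 3 libraries, 2 with DESeq2 and 2 to 5 with 1 left out. For the interaction of SCA1int with SCA1low, 2 became 0 with RLE, 1 without ribosomal features, 1 after subtraction, 5 without the 3 libraries, 0 with limma-trend, 0 with DESeq2 and 2 to 5 with 1 left out. For that of SCA1high with SCA1int, 1 became 0 with RLE, 4 without a filter, 2 with the replicate block, 4 without both doubted libraries, 2 after subtraction, 5 without the 3 libraries, 0 with limma-trend and 1 to 5 with 1 left out. For that of SCA1high with SCA1low, 0 became 1 without the 3 libraries. The number of all tested genes called changed too, so these counts do not describe the members alone. At SCA1low it was 72 in the main fit, 57 with limma-trend, 132 after subtraction, 137 with 4 libraries alone and 1663 with DESeq2. In the LY6D average it was 379 in the main fit and 2169 with DESeq2. The cause of these changes was not tested. With RLE, the interactions stood at -1.41 for Pbsn and at -1.91 and 2.24 for Spink1.

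Leaving out 1 library moved the LY6D log2 fold change of Azgp1 between -2.53 and 0.34 at SCA1low (positive without LY6D- SCA1low replicate 1) and between -4.42 and 0.50 at SCA1int (0.15 without LY6D+ SCA1int replicate 2, 0.50 without LY6D- SCA1int replicate 2), and that of Msmb at SCA1high between -1.93 and 0.26. For SCA1high against SCA1int in LY6D+ it moved Msmb between -1.97 and 0.16, Sbp between -2.43 and 0.30 and Sbpl between -2.65 and 2.55 (positive without LY6D+ SCA1high replicate 1 for Msmb and without LY6D+ SCA1int replicate 2 for both copies). Without the 3 carry-over libraries the values turned to 0.091 for Azgp1 at SCA1int, 0.12 for Msmb at SCA1high, and 0.20 for Sbp and 2.41 (called) for Sbpl at the upper step in LY6D+. After subtraction they turned to 1.84 for Azgp1 and 0.84 for Msmb at SCA1high. In the labels, libraries with the same replicate number share a prefix of unstated meaning; same-numbered libraries did not deviate together (correlations of -0.20 to 0.13 over 15 pairs of populations, 2 above 0.1), so the replicate block was kept as an alternative. Relative to TMM, the median log2 fold change of all genes moved by -0.12 with RLE in the LY6D average and by -0.27 in the SCA1 average, and by 0.48 there with library size alone. With 2 libraries per population and a common biological coefficient of variation of 1.28 over all tested genes, small differences could be missed. Some were still called, such as that of Defb50 between LY6D states (-0.62 ± 0.14 SE).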
